A study of Mus musculus with 8 samples.

Results

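The serpins that lymphocytes carry against their own proteases were followed through donor T cells taken from the spleens of mice after allogeneic transplantation. A total of 6 genes were chosen by name: the clade B genes Serpinb9, Serpinb6b, Serpinb6a and Serpinb1a, and the clade A genes Serpina3f and Serpina3g. Earlier results of these data were known when the genes were chosen. All 6 were among the 25078 gene rows of the deposited table and among the 12428 genes that passed the filter on low counts. RNA was sequenced from 8 libraries, 2 in each of 4 groups. The groups were CD4+ and CD8+ donor T cells, each of them WT or STAT3KO, sorted from spleen as H-2Kb+ TCRβ+ cells 6 days after hematopoietic cell transplantation (HCT). The donors were C57BL/6 mice, and the STAT3KO donors were Stat3 fl/fl mice with a Cre transgene driven by Cd4 regulatory sequences, so that the gene was deleted in T-lineage cells and in both subsets. In all 4 groups the recipients were lethally irradiated WT BALB/c mice that also received T cell-depleted bone marrow from WT C57BL/6 mice, and each library pooled the cells of 3 recipients. The study treated WT T cell recipients as mice with graft-versus-host disease and STAT3KO T cell recipients as mice without it, so donor genotype and the disease state of the host cannot be told apart here. The libraries of a group are labelled as replicates, and p-values measure the spread between such pooled libraries only. The replicate number probably marks a batch shared by the 4 groups, and results of a fit with that number as a replicate block are given where it changes a call.

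Serpins are protease inhibitors that work as bait. A protease cleaves the exposed reactive-centre loop of the serpin, the serpin snaps into a new fold, and the protease is dragged along and held in a covalent complex. The loop sequence therefore decides which protease is caught. Cytotoxic lymphocytes make intracellular serpins together with the granule proteases they use for killing, and such serpins are known to spare the killer cell when granule contents leak into its own cytosol. Serpinb9 inhibits granzyme B. Serpinb6b is known as an inhibitor of granzyme A. Serpinb6a and Serpinb1a are best known as inhibitors of cathepsin G and of neutrophil serine proteases. Serpina3g (Spi2A) inhibits lysosomal cathepsins, and Serpina3f is its close neighbour in the Serpina3 cluster.

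The loop-coding bases of the 6 genes are shown because this stretch is where such serpins differ in the protease they catch. They were read 5′ to 3′ from the GENCODE transcripts of GRCm38, and capitals mark the codons of the hinge motif that opens the loop.
Serpinb9: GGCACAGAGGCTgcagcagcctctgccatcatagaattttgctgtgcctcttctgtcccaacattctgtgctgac
Serpinb6b: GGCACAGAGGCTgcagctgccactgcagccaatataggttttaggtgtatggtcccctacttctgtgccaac
Serpinb6a: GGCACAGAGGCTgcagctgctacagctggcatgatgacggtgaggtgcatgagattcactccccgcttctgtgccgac
Serpinb1a: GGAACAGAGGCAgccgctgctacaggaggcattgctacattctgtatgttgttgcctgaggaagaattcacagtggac
Serpina3f: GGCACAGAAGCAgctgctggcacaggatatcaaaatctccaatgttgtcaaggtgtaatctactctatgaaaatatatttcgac
Serpina3g: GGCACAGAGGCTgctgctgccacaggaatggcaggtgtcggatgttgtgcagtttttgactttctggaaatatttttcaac
The hinge codons were the same letters in Serpinb9, Serpinb6b, Serpinb6a and Serpina3g. Serpina3f and Serpina3g were identical at 87.4% of 747 aligned coding bases and at 70.4% of 81 aligned loop bases. The Serpina3g reading frame used held 248 codons against 445 in Serpina3f, so the alignment covers only part of the Serpina3f coding sequence. Serpinb6a and Serpinb6b were identical at 86.4% of 1131 aligned coding bases and at 76.4% of 72 aligned loop bases. In both pairs the aligned loop bases were less alike than the aligned coding bases.

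In mm10 the clade B genes lie on 1 stretch of chromosome 13, with Serpinb1a at chr13:32842092-32851185 (minus strand), Serpinb6b at chr13:32965261-32979064 (plus strand), Serpinb9 at chr13:33004541-33017955 (plus strand) and Serpinb6a at chr13:33917918-34002794 (minus strand). Serpina3f lies at chr12:104214544-104221129 and Serpina3g at chr12:104214454-104241944, both on the plus strand, and the deposited span of Serpina3g encloses that of Serpina3f. Of the 51-base windows in the transcripts of each gene, which is the length of 1 read, 15.1% in Serpina3g and 10.0% in Serpina3f also occurred in transcripts of another gene, mainly Serpina3 paralogs. Values for this pair are therefore uncertain, and these shares do not measure by how much. In Serpinb6a the share was 25.0%, because its exons overlap those of Nqo2, 1110046J04Rik and Ripk1 on the opposite strand, and reads of overlapping genes cannot be told apart without knowing the strand setting of the counting. The share was 2.74% in Serpinb6b, 2.55% in Serpinb1a and 0.349% in Serpinb9. These windows come from GENCODE transcripts, while reads were counted on RefSeq genes. For Serpinb6a the GENCODE exons hold 5409 bases against 1888 in the deposited table, so its share is not one of the counted reads.

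The libraries held 20171396 to 23282757 reads counted in genes. Stat3 was measured at 428 to 436 CPM (read counts scaled to a common library size, here by the trimmed mean of M values, TMM) in WT libraries and at 120 to 143 CPM in STAT3KO libraries, so that part of the transcript was still counted. Cd4 was at 1.04 to 8.16 CPM in CD8+ libraries against 1361 to 1602 CPM in CD4+ libraries, and in every group the replicate 2 library held more of the other subset's marker and more of the macrophage transcript C1qa (281 to 527 against 24 to 62 counts). A list of T cell markers summed to 5114 to 6456 CPM. Lists for B cells (2.51 to 17.7 CPM), macrophages (17.3 to 116 CPM), neutrophils and progenitors (3.59 to 22.8 CPM) and erythroid cells (0.446 to 5.87 CPM, with 4 of 8 genes at 0 in each group) summed far lower. The NK cell list of 5 genes summed to 21.6 to 21.7 CPM in WT CD4+, 31.1 to 33.4 CPM in STAT3KO CD4+, 64.6 to 77.1 CPM in WT CD8+ and 66.0 to 93.7 CPM in STAT3KO CD8+ libraries. Of its 4 tested genes 1 was called higher in STAT3KO CD4+ cells, against 6.54% of all genes. It was Eomes, which T cells also express (2.03 on the log2 scale, edgeR adjusted p = 0.00551). There Klre1 differed by 1.67, Klri2 by 0.71 and Klrb1c by 0.02 (edgeR adjusted p = 0.0956, 0.233 and 0.960). Klrb1c was at 14.1 to 26.4 CPM over all libraries, and Ncr1 had 0 to 5 counts in any library. The part of such cells in the serpin values was not tested. The samples are bulk RNA, and a change in the share of a cell type cannot be told apart from a change in RNA per cell.

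The 6 genes made up nearly all serpin RNA in these T cells. The table held 65 serpin rows, of which 43 had a count in any library and 16 passed the filter. Per length, as RPKM (reads scaled by gene length and library size) averaged over 8 libraries, Serpinb6b was highest at 471, above 99.5% of the genes tested. Serpinb9 followed at 210 RPKM (98.3%) and Serpina3g at 108 RPKM (95.2%). Serpina3f at 23.6 RPKM, Serpinb6a at 21.4 RPKM and Serpinb1a at 20.0 RPKM were mid-level genes, above 71.7%, 69.4% and 67.8% of the genes tested. Together the 6 genes carried 95.2% to 96.0% of the summed serpin RPKM in every library. Serpinb6b and Serpinb9 alone carried 63.6% to 69.8% of it in CD4+ libraries and 80.6% to 85.7% in CD8+ libraries.

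**Figure D1:**
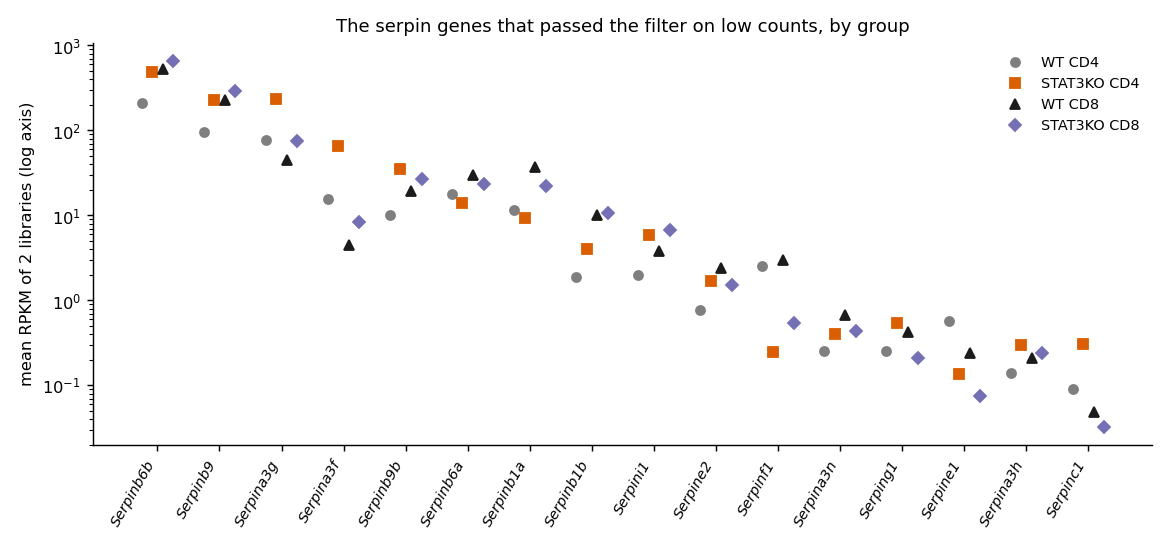
Mean RPKM (log axis, 2 libraries per group) of the 16 serpin genes that passed the filter on low counts, ordered by their mean over the 4 groups. Serpinb6b, Serpinb9 and Serpina3g stand highest, and WT CD4+ cells are the lowest group for Serpinb6b and Serpinb9.

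The first question of the design was what loss of STAT3 did to donor CD4+ T cells. Of the 6 serpins, 4 rose in STAT3KO CD4+ cells and none fell by edgeR's quasi-likelihood test at an adjusted p under 0.05, where 6.54% of all genes tested were called higher and 5.08% lower. The risers were the inhibitors of granzymes B and A and both Serpina3 genes, by 2.4- to 4.3-fold. Serpinb6a and Serpinb1a, the inhibitors of neutrophil-type proteases, did not pass the test. The libraries of the 2 genotypes did not overlap for 5 of 6 serpins, as for 53.5% of all genes tested. With the replicate block 5 of 6 were called, against 30.1% of all genes in either direction, Serpinb6a being the one added.

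The WT CD4+ libraries held Serpinb9 at 342 and 301 CPM, and those of STAT3KO CD4+ cells held it at 783 and 795 CPM. Its log2 fold change was 1.30 ± 0.11 (SE, 2 libraries per group; edgeR adjusted p = 0.00114), or 2.46-fold. Both STAT3KO libraries lay well above both WT libraries.

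Serpinb6b was at 493 and 402 CPM in WT and at 1071 and 1076 CPM in STAT3KO CD4+ libraries. The log2 fold change was 1.26 ± 0.13 (SE, 2 libraries per group; edgeR adjusted p = 0.00178), or 2.40-fold. The pair kept a nearly constant proportion, with 2.05 to 2.45 RPKM of Serpinb6b per RPKM of Serpinb9 in all 8 libraries. The calls for Serpinb9 and Serpinb6b held in all 18 alternative analyses run for this comparison, with log2 fold changes of 1.20 to 1.37 and 1.11 to 1.39.

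Serpina3g, the cathepsin inhibitor, was at 178 and 177 CPM in WT and at 457 and 619 CPM in STAT3KO CD4+ libraries. Its log2 fold change was 1.60 ± 0.29 (SE, 2 libraries per group; edgeR adjusted p = 0.0144), or 3.03-fold. Serpina3f went from 35.9 and 36.0 CPM to 133 and 175 CPM. Its log2 fold change was 2.10 ± 0.40 (SE, 2 libraries per group; edgeR adjusted p = 0.0155), or 4.28-fold. The WT libraries agreed closely for both genes and the STAT3KO libraries were farther apart. These calls were less firm than those of the clade B pair. Without any 1 of the 4 CD4+ libraries the adjusted p of Serpina3f was 0.0549 to 0.0857, and without WT CD4+ replicate 1, WT CD4+ replicate 2 or STAT3KO CD4+ replicate 2 that of Serpina3g was 0.0543, 0.0740 and 0.0822, each with edgeR and with the lone library assumed to vary like the other groups.

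Serpinb6a was at 30.5 and 37.7 CPM in WT and at 25.1 and 29.5 CPM in STAT3KO CD4+ libraries. The log2 difference was -0.32 (95% interval -0.64 to 0.00; edgeR adjusted p = 0.188), and with the replicate block it was -0.32 (edgeR adjusted p = 0.0330). Serpinb1a was at 24.4 and 20.1 CPM in WT and at 20.2 and 16.2 CPM in STAT3KO, and these libraries overlapped (log2 difference -0.30, 95% interval -0.66 to 0.07; edgeR adjusted p = 0.271).

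**Figure D2:**
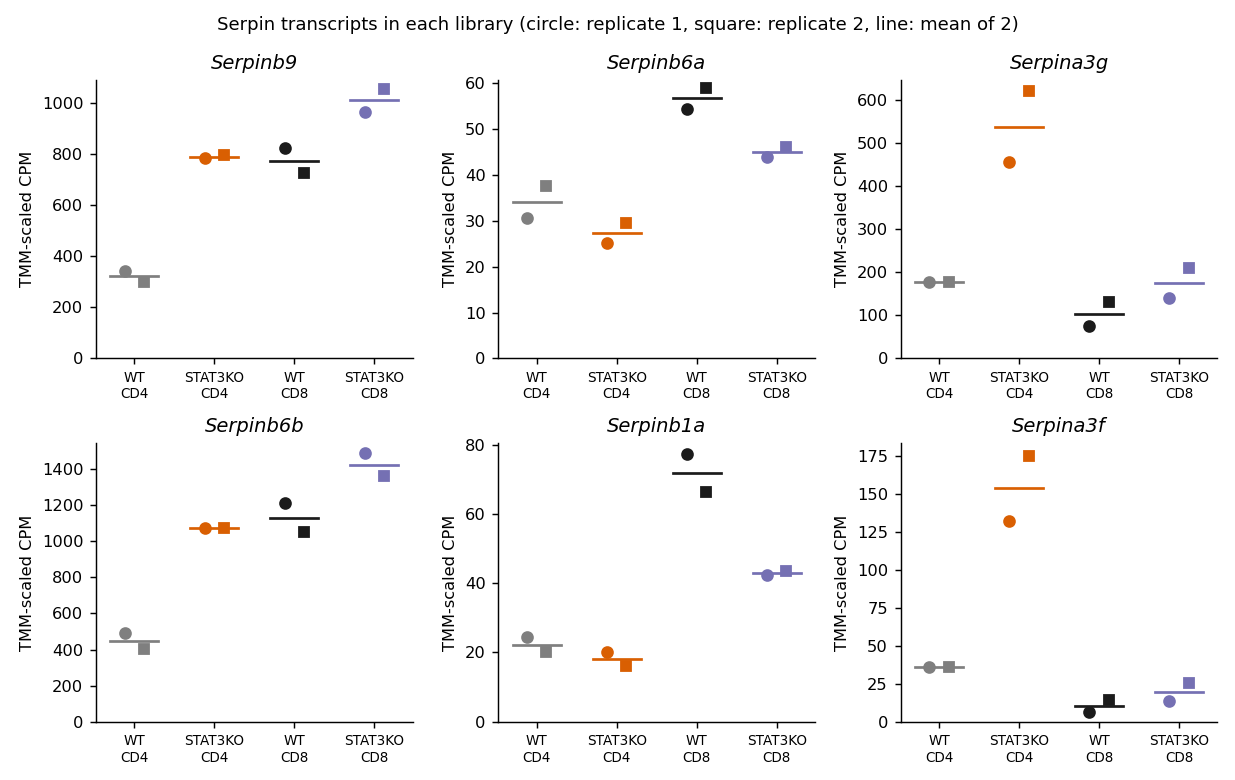
TMM-scaled CPM of each serpin in each of the 8 libraries, by group (circle, replicate 1; square, replicate 2; line, mean of 2; each axis starts at 0). Serpinb9 and Serpinb6b were lowest in WT CD4+ cells, Serpinb6a and Serpinb1a were highest in WT CD8+ cells, and Serpina3f and Serpina3g were highest in STAT3KO CD4+ cells.

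In CD8+ T cells none of the 6 serpins passed the same test for STAT3KO against WT, where 2.07% of all genes tested were called in either direction. At an unadjusted p under 0.05 there were 5 of 6, against 19.3% of all genes. With DESeq2 there were 2, Serpinb9 and Serpinb1a, against 6.8% of all genes. With edgeR's likelihood-ratio test there was 1, Serpinb1a, against 6.56%. With limma on log2(RPKM + 1) there was none, and the share of all genes for limma is not given here. With the replicate block all 6 were called, against 18.2% of all genes, with Serpinb9, Serpinb6b, Serpina3f and Serpina3g higher and Serpinb6a and Serpinb1a lower in STAT3KO cells (edgeR adjusted p = 0.00159 to 0.0334). The libraries of the 2 genotypes did not overlap for 5 of 6 serpins, as for 49.7% of all genes tested.

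Serpinb1a had the smallest adjusted p of the 6. It was at 77.4 and 66.4 CPM in WT CD8+ and at 42.3 and 43.4 CPM in STAT3KO CD8+ libraries, with a log2 difference of -0.74 ± 0.15 (SE, 2 libraries per group; edgeR adjusted p = 0.0538), and DESeq2 gave -0.75 with an adjusted p of 0.00151. The summed neutrophil and progenitor markers were at 9.32 to 22.8 CPM in WT CD8+ and at 6.54 to 7.43 CPM in STAT3KO CD8+ libraries. None of the 8 tested markers of that list was called, against 2.07% of all genes in either direction. Among them the log2 difference was -2.43 for Ltf (edgeR adjusted p = 0.0886), -3.11 for Camp (edgeR adjusted p = 0.148), -1.50 for Ngp (edgeR adjusted p = 0.299) and -0.56 for Mpo (edgeR adjusted p = 0.763). It was -1.21 for S100a9 and -1.11 for S100a8 (edgeR adjusted p = 0.294 and 0.319). Prtn3 differed by -0.12 and Ctsg by 0.24, in the other direction (edgeR adjusted p = 0.972 and 0.930). The part of such cells in the Serpinb1a difference was not tested. Serpinb6a, the other serpin of this type, was at 54.4 and 59.1 CPM in WT and 43.9 and 46.1 CPM in STAT3KO CD8+ libraries (log2 difference -0.34, 95% interval -0.65 to -0.02; edgeR adjusted p = 0.234).

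The granzyme inhibitors were already high in WT CD8+ cells. Serpinb9 was at 823 and 726 CPM in WT and at 967 and 1054 CPM in STAT3KO CD8+ libraries (log2 difference 0.38, 95% interval 0.12 to 0.64; edgeR adjusted p = 0.123). Serpinb6b was at 1214 and 1049 CPM in WT and at 1489.7 and 1361 CPM in STAT3KO CD8+ libraries (log2 difference 0.33, 95% interval 0.04 to 0.63; edgeR adjusted p = 0.207). For both genes the STAT3KO libraries lay above the WT libraries by less than in CD4+ cells.

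Serpina3g was at 75.1 and 131 CPM in WT and at 141 and 209.7 CPM in STAT3KO CD8+ libraries (log2 difference 0.77, 95% interval 0.09 to 1.44; edgeR adjusted p = 0.206). Serpina3f was at 6.14 and 14.6 CPM in WT and at 13.4 and 25.3 CPM in STAT3KO CD8+ libraries, which overlapped (log2 difference 0.90, 95% interval -0.06 to 1.86; edgeR adjusted p = 0.288). In both genotypes the replicate 2 library was the higher one for both genes, and the spread within a group was near the distance between the groups. Between libraries of the same replicate number STAT3KO was the higher one for both genes in both pairs. With the replicate block the log2 difference was 0.78 for Serpina3g (edgeR adjusted p = 0.00688) and 0.91 for Serpina3f (edgeR adjusted p = 0.0265).

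Whether the effect of STAT3 loss differed between the subsets was tested directly, as the log2 fold change in CD8+ cells minus that in CD4+ cells. All 6 estimates were below 0, and none of the 6 serpins passed edgeR's adjusted test, nor did any other gene (0% of all genes tested). At an unadjusted p under 0.05 there were 2 of 6, Serpinb9 and Serpinb6b, against 7.9% of all genes. DESeq2 called the same pair, against 1.41% of all genes, and the likelihood-ratio test of edgeR called 1, Serpinb9, against 1.1%. From limma on log2(RPKM + 1) there was no call, again with no share of all genes given. With the replicate block Serpinb9 and Serpinb6b were called (edgeR adjusted p = 0.00811 and 0.00583), against 3.24% of all genes. The difference was -0.91 (95% interval -1.28 to -0.54; edgeR adjusted p = 0.130) for Serpinb9 and -0.93 (95% interval -1.35 to -0.51; edgeR adjusted p = 0.156) for Serpinb6b. It was -1.20 (95% interval -2.51 to 0.11) for Serpina3f, -0.83 (-1.78 to 0.12) for Serpina3g, -0.45 (-0.95 to 0.05) for Serpinb1a and -0.02 (-0.47 to 0.44) for Serpinb6a.

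**Figure D3:**
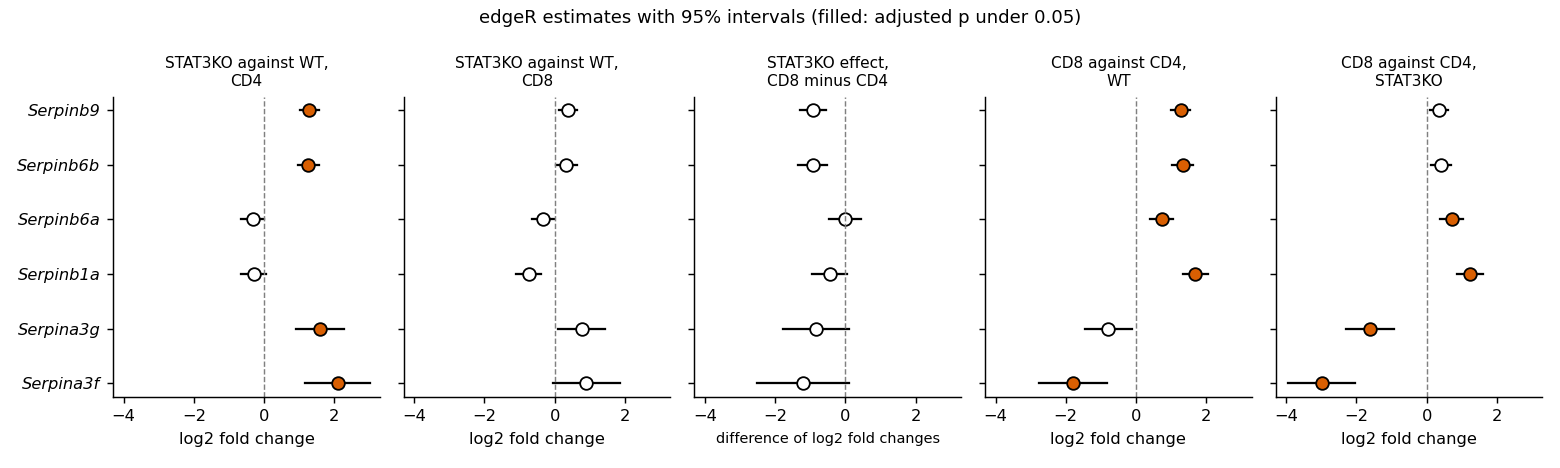
edgeR log2 fold changes with 95% intervals for each serpin in the 4 comparisons, and the difference of the STAT3KO effects between subsets in the middle panel (filled points, adjusted p under 0.05; dashed line, no change). Filled points are 4 for STAT3KO against WT in CD4+ cells, none in CD8+ cells, none for the difference, and 5 and 4 for CD8+ against CD4+ cells in WT and STAT3KO.

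The subsets themselves differed in their serpins. These comparisons share libraries with those above. Among WT cells, CD8+ cells were higher than CD4+ cells for all 4 clade B serpins and lower for Serpina3f, where 12.2% of all genes tested were called higher and 11.6% lower. The libraries of the 2 subsets did not overlap for any of the 6, as for 59.3% of all genes tested. The log2 difference of CD8+ from CD4+ was 1.69 ± 0.15 for Serpinb1a (edgeR adjusted p = 0.000343), 1.34 ± 0.13 for Serpinb6b (edgeR adjusted p = 0.000411), 1.27 ± 0.11 for Serpinb9 (edgeR adjusted p = 0.000331) and 0.73 ± 0.14 for Serpinb6a (edgeR adjusted p = 0.00747), each with its SE over 2 libraries per group. Serpina3f differed by -1.79 ± 0.41 (edgeR adjusted p = 0.0176), and Serpina3g by -0.79 ± 0.29 (edgeR adjusted p = 0.0912). Both Serpina3 values rested on the WT CD8+ libraries, which lay far apart. Without WT CD8+ replicate 1 Serpina3f was at -1.32 (edgeR adjusted p = 0.0603) and Serpina3g at -0.46 (edgeR adjusted p = 0.331). Without WT CD8+ replicate 2 they were at -2.56 (edgeR adjusted p = 0.00598) and -1.25 (edgeR adjusted p = 0.0241). Of 18 alternatives 5 called Serpina3g, among them the replicate block (-0.84, edgeR adjusted p = 0.00129), under which all 6 serpins were called, against 42.1% of all genes.

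Among STAT3KO cells, 2 of 6 serpins were higher in CD8+ cells and 2 were lower, where 5.84% of all genes tested were called higher and 6.67% lower, and the subsets did not overlap for any of the 6, as for 58.3% of all genes. Serpinb1a was higher by 1.24 ± 0.16 (SE, 2 libraries per group; edgeR adjusted p = 0.00313) and Serpinb6a by 0.72 ± 0.14 (edgeR adjusted p = 0.0158). Serpina3f was lower, at -2.99 ± 0.41 (edgeR adjusted p = 0.00447), as was Serpina3g, at -1.62 ± 0.29 (edgeR adjusted p = 0.0128). For the granzyme inhibitors the distance between subsets was smaller than among WT cells, at 0.36 ± 0.11 for Serpinb9 (edgeR adjusted p = 0.0822) and 0.41 ± 0.13 for Serpinb6b (edgeR adjusted p = 0.0766). Serpinb6a lost its call without any 1 of the 4 STAT3KO libraries (edgeR adjusted p = 0.0530 to 0.123), and Serpina3g without STAT3KO CD4+ replicate 2 (0.0685) or STAT3KO CD8+ replicate 1 (0.0843). With the replicate block all 6 were called, against 29.7% of all genes, with Serpinb9 and Serpinb6b the added ones (edgeR adjusted p = 0.0171 and 0.00667).

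Put in order of level, 3 patterns were seen. Serpinb9 and Serpinb6b were lowest in WT CD4+ cells, STAT3KO CD4+ and WT CD8+ cells overlapped in the middle, and STAT3KO CD8+ cells were highest. Serpinb6a and Serpinb1a ran from STAT3KO CD4+ through WT CD4+ and STAT3KO CD8+ to WT CD8+ cells, with the CD4+ groups overlapping for Serpinb1a. Serpina3f and Serpina3g ran from WT CD8+ through STAT3KO CD8+ and WT CD4+ to STAT3KO CD4+ cells, with the CD8+ groups overlapping for Serpina3f and STAT3KO CD8+ overlapping WT CD4+ for Serpina3g.

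The start regions shown are of the 4 genes that held a match to a motif given below. Serpina3f and Serpina3g moved together and lie side by side. Serpinb9 rose with them in STAT3KO CD4+ cells, as did Serpinb6b, whose window held no match and is not shown. Between the subsets Serpinb9 and the Serpina3 genes lay in opposite directions. Serpinb6a, also shown, passed the test for STAT3 loss only with the replicate block. RefSeq windows of 300 bases (GRCm38.p6, from 250 before to 50 after an annotated start, 5′ to 3′ on the gene's strand) matched 5 of 6 members, in 7 windows, and none was found for Serpinb1a. Capitals mark matches, on either strand, to TTCNNNGAA, the core that STAT factors are known to bind, or to GAAANNGAA, a core of interferon-response elements.
Serpina3f chr12:104214294-104214593 (plus strand): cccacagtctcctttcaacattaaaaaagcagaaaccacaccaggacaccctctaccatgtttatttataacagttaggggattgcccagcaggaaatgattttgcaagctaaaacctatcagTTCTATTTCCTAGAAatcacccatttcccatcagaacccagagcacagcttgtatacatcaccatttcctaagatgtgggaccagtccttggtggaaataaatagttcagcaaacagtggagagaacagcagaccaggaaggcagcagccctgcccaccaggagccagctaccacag
Serpina3g chr12:104235897-104236196 (plus strand): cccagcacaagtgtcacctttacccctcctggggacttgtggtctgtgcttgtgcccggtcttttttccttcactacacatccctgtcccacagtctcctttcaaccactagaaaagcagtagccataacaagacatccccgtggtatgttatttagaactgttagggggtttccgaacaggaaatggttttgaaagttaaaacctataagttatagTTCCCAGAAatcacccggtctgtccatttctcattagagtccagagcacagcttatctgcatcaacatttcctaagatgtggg
Serpinb9 chr13:33004291-33004590 (plus strand): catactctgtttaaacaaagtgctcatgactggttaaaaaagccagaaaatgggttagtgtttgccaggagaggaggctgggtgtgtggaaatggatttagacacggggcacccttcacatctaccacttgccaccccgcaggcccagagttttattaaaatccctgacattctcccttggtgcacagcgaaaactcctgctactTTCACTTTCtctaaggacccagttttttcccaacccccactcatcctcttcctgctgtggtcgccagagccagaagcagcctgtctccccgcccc
Serpinb6a chr13:34002745-34003044 (minus strand): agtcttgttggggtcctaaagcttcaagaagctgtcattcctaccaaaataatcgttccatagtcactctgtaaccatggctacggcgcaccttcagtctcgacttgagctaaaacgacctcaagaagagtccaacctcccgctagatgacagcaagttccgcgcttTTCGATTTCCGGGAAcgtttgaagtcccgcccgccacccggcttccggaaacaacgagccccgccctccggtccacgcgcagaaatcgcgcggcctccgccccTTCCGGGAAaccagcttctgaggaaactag
The STAT-type letters occurred in 8.3% and the interferon-type letters in 8.56% of 32851 windows of the same length across the genome's genes. Serpina3f held TTCCTAGAA, with 112 bases between it and the start, and an interferon-type match that overlaps it. Serpina3g held TTCCCAGAA, with 24 bases between it and the start used for its window. The deposited span of Serpina3g begins upstream of that, at chr12:104214454, which lies inside the Serpina3f window shown. The windows aligned over 202 bases at 83.7% identity, with the 2 STAT-type matches opposite each other. Serpinb9 held 1 interferon-type match, with 36 bases between it and the start, and no STAT-type match. Serpinb6a held TTCCGGGAA at 2 places in the window shown, 1 of them overlapping an interferon-type match. The Serpinb6b window held neither motif, a second Serpina3f window held the same matches as the first, and a second Serpinb6a window held 1 interferon-type match. A match of letters is a description of the sequence and not evidence of binding.

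The proteases that these serpins are known to inhibit were then followed. Gzmb, which encodes granzyme B, was lower in STAT3KO cells of both subsets, with log2 differences and SE of -0.65 ± 0.12 among CD4+ (edgeR adjusted p = 0.0142) and -1.11 ± 0.12 among CD8+ cells (edgeR adjusted p = 0.0119). For Gzma the log2 difference was 0.28 among CD4+ (edgeR adjusted p = 0.486) and -0.47 among CD8+ cells (edgeR adjusted p = 0.296), and for Prf1, which encodes the pore-former perforin, it was 0.07 and -0.67 (edgeR adjusted p = 0.810 and 0.0717). Of 15 granule genes listed, 10 were tested. In STAT3KO CD4+ cells Gzmk (1.89, edgeR adjusted p = 0.00153) and Gzmm (1.13, edgeR adjusted p = 0.0168) were higher and Gzmb was lower, against 6.54% and 5.08% of all genes. In STAT3KO CD8+ cells Gzmb alone was called, where 2.07% of all genes were called in either direction. The list medians were 0.17 in CD4+ and -0.30 in CD8+ cells, beside 0.02 and -0.01 for all genes tested. In WT cells 7 of the 10 were higher in CD8+ than in CD4+ cells and 1, Srgn, was lower, against 12.2% and 11.6% of all genes.

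Serpin RNA per protease RNA was compared as a ratio of RPKM within each library. For CD4+ cells, Serpinb9 per Gzmb was 0.286 and 0.285 with STAT3 and 1.05 and 1.15 without it, a 3.86-fold higher mean. For CD8+ cells the ratio was 0.108 and 0.111 with STAT3 and 0.276 and 0.346 without it, a 2.84-fold higher mean. The genotypes did not overlap in either subset, and STAT3KO CD8+ cells overlapped WT CD4+ cells in this ratio. These ratios are a description with no test, and an exact permutation of 2 against 2 libraries cannot give a two-sided p below 0.333.

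For CD4+ cells, Serpinb6b per Gzma was 2.82 and 2.14 with STAT3 and 5.20 and 4.61 without it. For CD8+ cells it was 0.482 and 0.500 with STAT3 and 0.721 and 1.08 without it. The STAT3KO mean was 1.98-fold higher in CD4+ and 1.83-fold higher in CD8+ cells. In WT cells the ratio was 5.05-fold higher in CD4+ than in CD8+ cells, although Serpinb6b itself was higher in CD8+ cells.

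**Figure D4:**
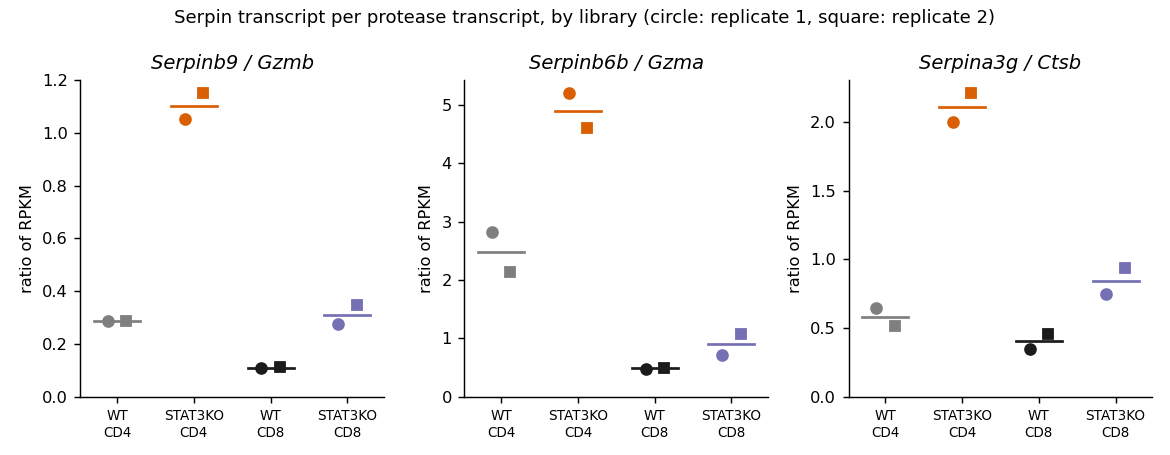
Ratio of serpin RPKM to protease RPKM in each library for Serpinb9 to Gzmb, Serpinb6b to Gzma and Serpina3g to Ctsb (circle, replicate 1; square, replicate 2; line, mean of 2; each axis starts at 0). In all 3 panels STAT3KO CD4+ libraries are the highest and WT CD8+ libraries the lowest, and the STAT3KO libraries lie above the WT libraries of their subset.

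The listed cathepsins moved in both directions in STAT3KO CD4+ cells. Ctsb and Ctsl, followed as targets of Serpina3g, both had estimates below 0 there. Ctsb, encoding cathepsin B, differed by -0.28 in both subsets on the log2 scale (edgeR adjusted p = 0.384 for CD4+ and 0.478 for CD8+ cells). For CD4+ cells, Serpina3g per Ctsb was 0.649 and 0.515 with STAT3 and 2.00 and 2.22 without it. For CD8+ cells it was 0.348 and 0.460 with STAT3 and 0.747 and 0.940 without it, and the genotypes did not overlap in either subset. Ctsl, encoding cathepsin L, fell by 0.91 on the log2 scale in STAT3KO CD4+ cells (edgeR adjusted p = 0.0361), and Serpina3g per Ctsl was 6.77 and 6.28 in WT against 38.0 and 36.5 in STAT3KO CD4+ libraries. Of 14 cathepsins tested, 2 were higher in STAT3KO CD4+ cells (Ctsd and Ctsc, by 0.49 and 0.79) and 3 were lower (Ctsa, Ctse and Ctsl, by -0.59, -1.37 and -0.91), against 6.54% and 5.08% of all genes. None was called in STAT3KO CD8+ cells, where 2.07% of all genes were called in either direction. The list medians were -0.39 in CD4+ and -0.29 in CD8+ cells, beside 0.02 and -0.01 for all genes tested. None of 3 tested cystatins, which inhibit cathepsins by another mechanism, was called for STAT3 loss in either subset, with list medians of -0.17 and -0.13. Over all genes 11.6% were called in either direction in CD4+ and 2.07% in CD8+ cells.

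The targets best known for Serpinb6a and Serpinb1a were nearly missing from these cells. Ctsg, encoding cathepsin G, had 2 to 15 counts per library, Elane, encoding neutrophil elastase, had 2 to 21, and Prtn3, encoding proteinase 3, had 0 to 14. For Serpinb6a and Serpinb1a, therefore, no ratio to a target was formed.

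Paralogs of Serpinb9 and Serpinb1a also rose in CD4+ cells. Serpinb9b, a paralog of Serpinb9, went from 21.8 and 18.4 CPM in WT CD4+ cells to 76.2 and 62.8 CPM without STAT3 (a log2 change of 1.79 ± 0.17 with its SE, at an edgeR adjusted p of 0.00143). Serpinb1b, a paralog of Serpinb1a, went from 3.09 and 3.40 CPM to 7.003 and 7.04 CPM (1.11 ± 0.20; edgeR adjusted p = 0.0124). In STAT3KO CD8+ cells neither was called (0.47 and 0.12, edgeR adjusted p = 0.172 and 0.782). Over all genes 6.54% were called higher in CD4+ cells and 2.07% in either direction in CD8+ cells. These were the 2 genes that passed the filter among 24 other clade B serpins, so the count says nothing of the other 22. Among 23 other clade A serpins 2 passed the filter and neither was called for STAT3 loss in either subset. The shares called in either direction over all genes were 11.6% in CD4+ and 2.07% in CD8+ cells.

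Interferon-stimulated genes were followed because Serpina3g is known to be induced by interferon. Of 20 listed and tested, 11 rose and none fell in STAT3KO CD4+ cells, against 6.54% of all genes called higher, with a median log2 fold change of 0.65 beside 0.02 for all genes. In STAT3KO CD8+ cells 6 rose and none fell, against 1.34% of all genes called higher, with a median of 0.55 beside -0.01. Among the CD4+ risers with the highest RPKM were Psmb9 (0.67, edgeR adjusted p = 0.00533), Tap1 (0.45, edgeR adjusted p = 0.0247) and Igtp (0.63, edgeR adjusted p = 0.00745). Of the same 20, 11 were lower in CD8+ than in CD4+ cells in each genotype, against 11.6% of all genes in WT and 6.67% in STAT3KO cells. In WT cells 1 was higher, against 12.2%, and in STAT3KO cells none was, against 5.84%. Serpina3f was called lower in CD8+ cells in both genotypes, and Serpina3g among STAT3KO cells only. The part of interferon in the serpin values was not tested.

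The genes whose levels were most alike to each serpin were found by Pearson's r of log2(CPM + 1) over the 8 libraries among 8757 genes, as a description. The 8 points come from 4 groups of 2 and are not independent. For Serpinb9 they were the transporter gene Slc43a3 (r = 0.994) and the mitotic kinase gene Melk (0.993), and for Serpinb6b the mitotic spindle gene Ckap2 and the sulfatase gene Arsb (both 0.995). Serpina3g was most like Gbp5 (0.986) and Iigp1 (0.979), both interferon-inducible GTPase genes, and Serpina3f most like Mycbp2 (0.991) and Pacc1 (0.987). Serpinb6a was most like Gldc (0.995) and Nmrk1 (0.983), and Serpinb1a most like Wdr5 (0.997) and Stk24 (0.995).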

How the data were processed

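RNA of WT and STAT3KO donor CD4+ and CD8+ T cells was sequenced in 8 libraries, 2 per group. The authors aligned 51-base single-end reads to mm10 with STAR and counted them per RefSeq gene with HTSeq. The strand setting is not given in the sources used here, and the labels and the study's methods name different library kits. The deposited table holds raw counts per gene, which were tested, and RPKM, which the authors computed and which were used to compare genes. Columns of the authors' comparisons were not used.

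Counts were fitted with edgeR 4.0.16 in R 4.3.3: genes kept by filterByExpr (minimum count 10), TMM scaling, 1 quasi-likelihood model over the 8 libraries, and Benjamini-Hochberg adjustment over 12428 genes at 0.05. The depth puts 3 counts, the floor used here, at 0.129 to 0.149 CPM, which covers counting error only. DESeq2 1.42.0 and limma 3.58.1 (log2 of RPKM plus a pseudocount of 1 or 0.1), other scalings and filters, a replicate block and leaving out each library were tried as alternatives.

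The replicate numbers probably pair the libraries, and the replicate block, fitted as an alternative only, uses them. The study's methods describe 2 batches of 3 pooled mice for its T cell receptor libraries, the titles carry 1 run of sample numbers for replicate 1 and another for replicate 2, and same-numbered libraries deviated together from their group means (r = 0.424 to 0.671 over 6 pairs of groups). The reported fit has no block, and the study's methods name none.

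The 6 members and the gene lists were chosen with earlier results of these data known. Named were the members, Stat3 and the subset markers, up to 4 called genes of each list by RPKM, the main target proteases, and for each member the 2 genes most alike among genes averaging 3 or more in log2 CPM. A gene that this rule also names is not reported here. Motifs, overlaps and sequences were read with Python 3.11.15 and Biopython 1.88. The labels' growth and treatment fields describe another cell type and were not used.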

Additional observations from a re-analysis of the deposited data

How the results depend on the processing

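Of 534 values of a member under an alternative, 487 kept their direction and their side of the threshold, 28 passed it where the reported value did not, 14 lost it and 5 changed sign. All 5 sign changes were of Serpinb6a in the CD8 minus CD4 difference, reported at -0.02 and between -0.167 and 0.141 when single libraries were left out: 0.00399 without a filter on low counts, 0.141 without WT CD4+ replicate 1, 0.107 without STAT3KO CD4+ replicate 2, 0.0472 without WT CD8+ replicate 2 and 0.0266 without STAT3KO CD8+ replicate 1. Left-out libraries took the number of serpins called from 4 to between 2 and 4 for STAT3KO against WT in CD4+ cells and to between 2 and 4 for CD8+ against CD4+ among STAT3KO cells. For STAT3KO against WT in CD8+ cells, with 0 serpins called, the number was 1 with total counts in place of TMM, 1 without a filter and 1 with the likelihood-ratio test (Serpinb1a each time), 2 with DESeq2 and 6 with the replicate block. For the CD8 minus CD4 difference, with 0 called, it was 2 with DESeq2, 1 with the likelihood-ratio test and 2 with the replicate block (Serpinb9 at -0.91 and Serpinb6b at -0.94). The cause was not tested.

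With the replicate block the number of genes called rose from 1444 to 3747 in CD4+ and from 257 to 2258 in CD8+ cells for STAT3 loss, from 0 to 403 for the difference of the effects, and from 2960 to 5232 and from 1555 to 3689 for CD8+ against CD4+ cells in WT and STAT3KO. Over the other alternatives these counts fell as low as 412, 7, 0, 1546 and 457. The block changed no call of a serpin other than those given with the results, and removed none.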

Other observations

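Among 11 serpins of other clades, 6 passed the filter on low counts. For STAT3 loss 1 was called higher and 1 lower in CD4+ cells, against 6.54% and 5.08% of all genes. In CD8+ cells 1 was called lower, against 0.732%. Among WT cells 2 were higher in CD8+ than in CD4+ cells, against 12.2%, and among STAT3KO cells 1 was lower, against 6.67%. Serpinf1, which encodes the secreted factor PEDF, fell in STAT3KO cells of both subsets. In CD4+ cells it went from 3.84 and 3.78 CPM with STAT3 to 0.250 and 0.503 CPM without it (a log2 change of -3.31, edgeR adjusted p = 0.00387). In CD8+ cells it went from 4.32 and 4.72 CPM to 0.579 and 1.08 CPM (-2.43, edgeR adjusted p = 0.0303). Of the 16 serpins tested it was the only one to pass the edgeR test for STAT3 loss in both subsets. The share of all genes called in both is not given here. Serpini1, which encodes neuroserpin, rose in STAT3KO CD4+ cells, from 7.43 and 5.34 CPM to 17.4 and 20.9 CPM (1.59, edgeR adjusted p = 0.00472), and in CD8+ cells the difference was 0.86 (edgeR adjusted p = 0.0815). Serpine2 was higher in WT CD8+ than in WT CD4+ cells (1.67, edgeR adjusted p = 0.00970). Serpinc1 was lower in STAT3KO CD8+ than in STAT3KO CD4+ cells, at 1 to 2 counts against 12 to 16 counts per library (edgeR adjusted p = 0.0179).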
